A study of Mus musculus with 9 samples.

Results

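The transcription factors that establish and maintain the macrophage lineage were followed by name in RAW264.7 cells, a mouse macrophage line derived from an Abelson murine leukemia virus-induced tumor of a male animal. The genes were Spi1, Cebpa, Cebpb, Cebpd, Maf, Klf2, Klf4, Runx1 and Batf, 9 of the 55401 genes in the table, and they were picked by symbol and not by their values. All 9 symbols were found, and 7 of them were among the 12819 genes with a mean of at least 1 TPM, a length-corrected share of the transcripts in a library, that were tested. Maf and Batf were below that level. The line was labelled wild type in every sample. The 3 groups were DMSO, the vehicle alone, LPS, which also received DMSO, and LPS + Ska, which received LPS together with skatole. LPS is lipopolysaccharide, a bacterial cell wall component that activates macrophages, and skatole is 3-methylindole. Treatment lasted 24 h according to the labels and the results section of the study, whereas its methods section gives 48 h. Each group held replicates numbered 5, 6 and 7, and no source states that these were separate cultures, so that p-values measure only the spread between these samples, which may be technical.

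PU.1, the ETS factor encoded by Spi1, and C/EBPα, the basic leucine zipper factor encoded by Cebpa, are the classic pair that opens macrophage genes during myeloid development, and Runx1 acts upstream of Spi1 in blood stem and progenitor cells. C/EBPβ and C/EBPδ, relatives of C/EBPα, drive acute-phase and cytokine genes in activated macrophages, and the zinc finger factors Klf2 and Klf4 are known as brakes on NF-κB dependent activation. c-Maf, encoded by Maf, promotes Il10 and complement genes in resident macrophages, and Batf is an AP-1 family factor studied mainly in lymphocytes and dendritic cells.

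The 3 columns of LPS were tied, as were those of LPS + Ska, since replicate 5 equalled the mean of replicates 6 and 7 within 1e-05 TPM in 17950 of 17950 genes under LPS and in 17658 of 17658 under LPS + Ska, against 10 of 16674 in DMSO. These groups therefore held at most 2 independent values per gene, and n = 3 below counts columns. An adjusted p after replacing the tied columns by 2 recovered values is given for the lineage factors called in each comparison. The recovered values lie closer together than replicates 6 and 7, so this adjusted p may be too low. Columns summed to between 999895 and 1000140 TPM, with 12498 to 13012 genes at 1 TPM or more. Of 12 macrophage markers 11 reached 1 TPM in every group and Mertk was listed at 0. The list summed to 13398 to 14422 TPM in DMSO, 8058 to 8492 TPM under LPS and 14320 to 14666 TPM under LPS + Ska. Lyz2 alone averaged 9151, 4423 and 10061 TPM in these groups. Of its 11 tested genes 4 (Csf1r, Lyz2, Tyrobp and Laptm5) were called lower under LPS, 36.4% beside 20.0% of all genes tested. With skatole only Lyz2 was called higher and only Fcgr1 lower (median log2 fold change -0.05), 9.09% each beside 3.35% and 6.14%. B cell, dendritic, erythroid, fibroblast and epithelial markers had group means under 1 TPM each, though 1 dendritic and 1 erythroid marker reached 1 TPM in at least 1 column. The T cell list, in which only Lck was above 1 TPM, summed to 1.36 to 2.16 TPM in DMSO, 4.45 to 4.77 TPM under LPS and 2.55 to 3.15 TPM under LPS + Ska, and the neutrophil list to at most 3.55 TPM. The osteoclast list, with 4 of its 6 genes tested, summed to 61.1 to 72.6 TPM in DMSO, 107 to 118 TPM under LPS and 89.0 to 99.9 TPM under LPS + Ska, and the part of these lists in the results was not tested. In these bulk samples, fewer cells of a type and less RNA per cell cannot be told apart.

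LPS lowered most of the lineage factors. Of the 7 tested, 5 fell, none rose, and the median log2 fold change was -0.998 against -0.07 over all genes tested. A gene was called at an adjusted p below 0.05 (limma, Benjamini-Hochberg over all genes tested) with a fold change above 1.5 or below 0.67 on the log2(TPM + 1) scale. With that rule 20.0% of all genes tested were called lower and 12.7% were called higher in this comparison. The 5 that fell were Klf4, Klf2, Cebpa, Runx1 and Spi1, and with recovered values in place of the tied columns these calls stayed, with the highest limma adjusted p, that of Runx1, at 3.4e-05.

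**Figure D1:**
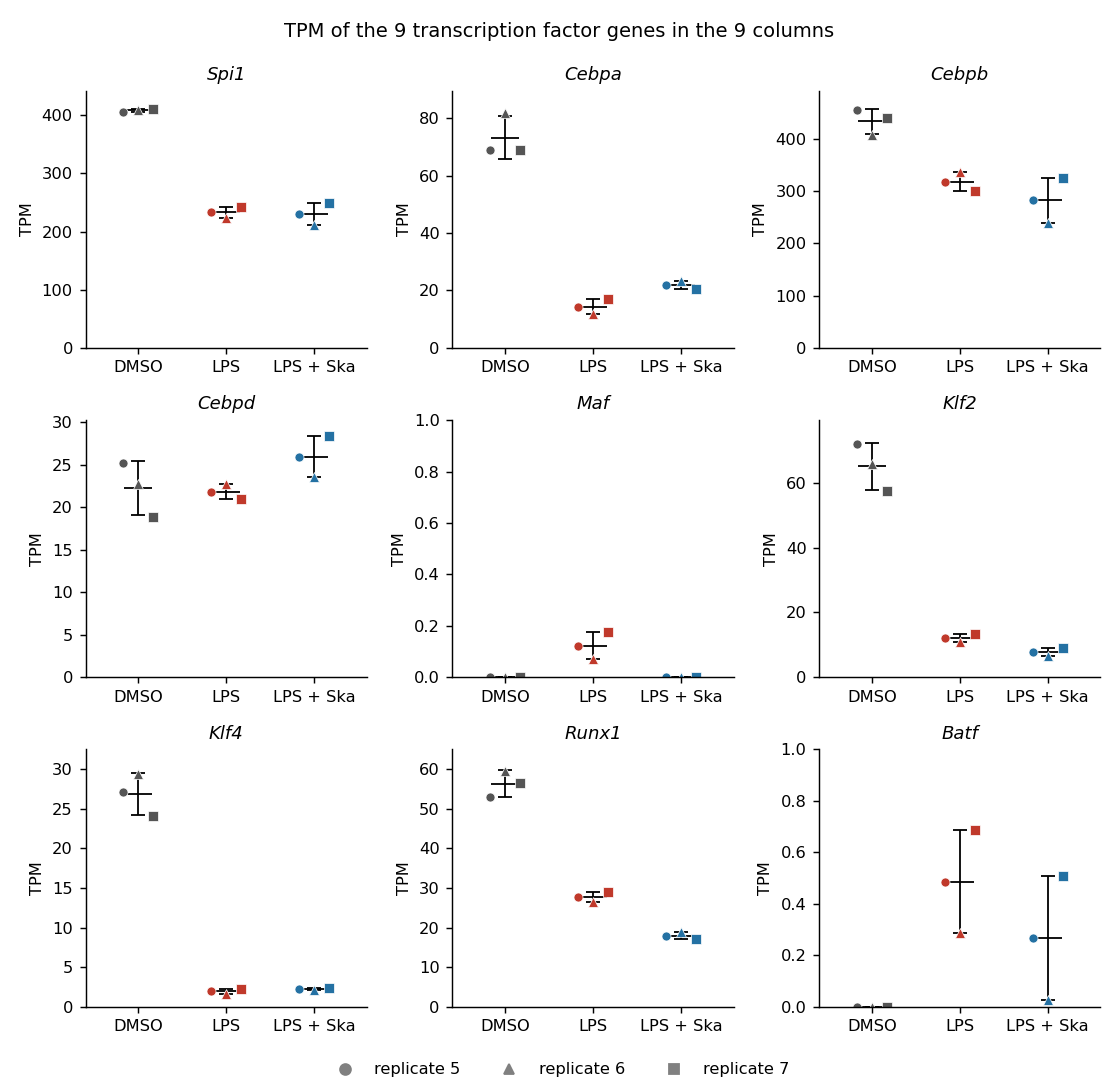
TPM of each lineage factor in every column of the DMSO, LPS and LPS + Ska groups, with points for replicates 5, 6 and 7, a horizontal line for the group mean and error bars for 1 SD. Spi1, Cebpa, Klf2, Klf4, Runx1 and Cebpb lay lower in all LPS columns than in all DMSO columns, and Cebpb was not called. The LPS columns are tied, and the share of all genes separated in this way is not given.

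Spi1 stood at 405, 409 and 411 TPM in DMSO, at 233, 224 and 242 TPM under LPS and at 230, 211 and 249 TPM under LPS + Ska. The DMSO columns lay above all others and the LPS and LPS + Ska columns overlapped. The level under LPS was 57.0% of that in DMSO (log2 fold change -0.81, SE 0.06, limma adjusted p = 6.8e-06), and the level under LPS + Ska was 56.4% of it. Spi1 lies at chr2:91082390-91115756 on the plus strand of GRCm38 (mm10). Between LPS + Ska and LPS its log2 difference was -0.02, with a 95% interval of -0.16 to 0.12.

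Runx1 stood at 52.9, 59.6 and 56.6 TPM in DMSO, at 27.7, 26.5 and 28.9 TPM under LPS and at 17.9, 18.8 and 17.01 TPM under LPS + Ska. The 3 groups did not overlap. LPS brought it to 49.2% of the DMSO level (log2 fold change -0.998, SE 0.07, limma adjusted p = 4.0e-06), and the LPS + Ska level was 64.6% of that under LPS. The gene spans chr16:92601466-92826149 on the minus strand and has 7 annotated transcripts, and its gene-level TPM does not separate transcripts from its 2 promoters. Gm26626, on the opposite strand, shares 106 bases of exon with it and averaged 0.875, 0.533 and 0 TPM in DMSO, LPS and LPS + Ska. Its promoter windows, which differ in base composition, are shown because the gene-level value sums over both: RefSeq windows of GRCm38.p6, 5′ to 3′ along the minus strand, without bases inside annotated exons. The distal one lies at chr16:92826150-92826324 and the proximal one at chr16:92697330-92697579.

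Runx1 distal: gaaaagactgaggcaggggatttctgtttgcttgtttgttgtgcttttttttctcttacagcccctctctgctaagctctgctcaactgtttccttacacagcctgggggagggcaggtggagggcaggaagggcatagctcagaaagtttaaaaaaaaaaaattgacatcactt
Runx1 proximal: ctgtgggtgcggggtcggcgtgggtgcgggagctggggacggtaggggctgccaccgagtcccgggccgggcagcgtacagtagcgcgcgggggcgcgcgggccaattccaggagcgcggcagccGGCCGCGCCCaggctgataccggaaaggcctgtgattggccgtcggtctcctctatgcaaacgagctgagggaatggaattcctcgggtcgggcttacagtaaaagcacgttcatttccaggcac

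Capitals in the promoters shown here and further on mark matches, on either strand, to 6 motifs searched in 32841 RefSeq windows of 250 bases before a start. The motifs were the κB pattern (3 G, 5 bases of any kind, 2 C), found in 45.8% of all windows, PU.1 GAGGAAGT in 2.44%, C/EBP TTGCNNAA in 9.57%, AP-1 TGANTCA in 6.75%, CRE TGACGTCA in 1.55% and the TATA box TATAAA in 12.4%. Overlapping matches form a single run of capitals. The full distal Runx1 window held no match and had 45.6% G and C, and the proximal window held 1 κB match and had 67.6%, against a median of 52.4% over all windows. Promoters were matched for 6 of the 9 genes.

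Of the 3 C/EBP genes Cebpa fell under LPS, and Cebpb and Cebpd were not called. Cebpa stood at 68.8, 81.8 and 69.0 TPM in DMSO, at 14.3, 11.7 and 16.9 TPM under LPS and at 21.9, 23.3 and 20.5 TPM under LPS + Ska. The groups did not overlap, and LPS + Ska lay between the other groups. LPS left 19.5% of the DMSO level (log2 fold change -2.29, SE 0.13, limma adjusted p = 7.3e-07). The gene is a single-exon gene at chr7:35119293-35121928 on the plus strand, and 51 of its bases overlap an exon of Gm45091 on the opposite strand, listed at 0 under LPS and LPS + Ska.

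Cebpb was the most abundant of the 9 by mean TPM in every group, at 455, 408 and 439 TPM in DMSO, 318, 337 and 300 TPM under LPS and 283, 240 and 326 TPM under LPS + Ska. The LPS columns lay below the DMSO columns and overlapped those of LPS + Ska. The LPS level was 73.3% of the DMSO level, with an adjusted p of 0.0042 by limma and a log2 fold change of -0.45 (SE 0.10), which is inside the fold limit, and it was not called. Cebpb lies at chr2:167688915-167690418, where 312 bases of exon are shared with Tmem189 on the opposite strand, at 84.2, 55.0 and 58.3 TPM in the 3 groups. The counting is not stated to use strand, so reads in the shared bases cannot be told apart.

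Cebpd stood at 25.2, 22.7 and 18.8 TPM in DMSO, at 21.8, 22.7 and 20.9 TPM under LPS and at 25.9, 23.5 and 28.3 TPM under LPS + Ska. Its DMSO and LPS columns overlapped. The log2 difference between LPS and DMSO was -0.02, with a 95% interval of -0.27 to 0.23. The gene, at chr16:15887286-15891031, shares 562 bases of exon with Spidr on the opposite strand, at 19.2, 24.8 and 22.6 TPM, so its value carries the same limit.

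The promoter of Cebpa, the C/EBP gene that fell furthest, is at chr7:35119043-35119292 on the plus strand. It held a TATA match 30 to 25 bases before the start and 3 κB matches, which include overlapping matches on opposite strands. The window of Cebpb, which was not called under LPS, also held 3 κB matches, so these do not set Cebpa apart. A role of the matches was not tested.

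Cebpa: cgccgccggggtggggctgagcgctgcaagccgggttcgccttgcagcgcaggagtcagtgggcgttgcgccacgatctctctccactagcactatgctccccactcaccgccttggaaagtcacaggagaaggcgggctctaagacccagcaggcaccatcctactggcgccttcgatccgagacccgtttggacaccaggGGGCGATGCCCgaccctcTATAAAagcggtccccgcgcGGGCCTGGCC

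Both Krüppel-like genes fell to a small remainder. Klf2 stood at 71.9, 65.7 and 57.6 TPM in DMSO, at 12.2, 11.0 and 13.3 TPM under LPS and at 7.77, 6.46 and 9.09 TPM under LPS + Ska, with no overlap between groups. LPS left 18.7% of its DMSO level (log2 fold change -2.32, SE 0.13, limma adjusted p = 7.9e-07). Klf4 stood at 27.2, 29.4 and 24.1 TPM in DMSO, at 1.93, 1.65 and 2.21 TPM under LPS and at 2.198, 2.06 and 2.33 TPM under LPS + Ska. Its LPS and LPS + Ska columns overlapped and lay far below DMSO. LPS left 7.20% of the DMSO level (log2 fold change -3.25, SE 0.12, limma adjusted p = 6.9e-08), the lowest share among the 7 genes, and the added pseudocount of 1 TPM understates the change of so low a gene.

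Their promoters are shown as those of genes that fell together. Klf2 lies at chr8:72319033-72321656 on the plus strand and Klf4 at chr4:55527143-55532466 on the minus strand. The windows are chr8:72318812-72319032 for Klf2 and chr4:55532476-55532725 for Klf4, both 5′ to 3′ along the gene. The full 250-base windows had 71.2% and 74.0% G and C and held 5 and 4 κB matches, with overlapping matches in both windows. Of those of Klf2, 1 lay in annotated exon bases that are not shown. Neither window held a match to the other 5 motifs. The κB pattern fixes only G and C bases. Its share of 45.8% counts windows with any match, at a median of 52.4% G and C. It is therefore no background for match counts in these windows, and binding was not tested.

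Klf2: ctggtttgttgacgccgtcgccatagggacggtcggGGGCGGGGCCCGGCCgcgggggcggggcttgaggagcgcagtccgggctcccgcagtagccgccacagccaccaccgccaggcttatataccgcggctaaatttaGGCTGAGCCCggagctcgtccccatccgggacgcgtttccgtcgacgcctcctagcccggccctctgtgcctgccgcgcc
Klf4: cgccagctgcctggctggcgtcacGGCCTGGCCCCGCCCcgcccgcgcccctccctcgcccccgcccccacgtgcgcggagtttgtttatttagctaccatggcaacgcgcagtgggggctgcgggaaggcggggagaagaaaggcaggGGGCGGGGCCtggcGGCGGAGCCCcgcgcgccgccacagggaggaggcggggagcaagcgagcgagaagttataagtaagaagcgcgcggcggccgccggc

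Maf and Batf were near the floor. Maf was listed at 0 in all DMSO and LPS + Ska columns and at 0.123, 0.0724 and 0.174 TPM under LPS. Batf was listed at 0 in DMSO, at 0.486, 0.285 and 0.687 TPM under LPS and at 0.268, 0.0260 and 0.509 TPM under LPS + Ska. No fold is given for either gene, since DMSO is listed at 0.

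Adding skatole to LPS moved 3 of the 7 genes, and it moved them in different directions. Cebpa rose and Klf2 and Runx1 fell, against 3.35% of all genes tested called higher and 6.14% called lower. With median-ratio scaling 591 of all genes were called higher and 543 lower here, against 429 and 787 as scaled by the authors. Cebpa was at 153% of its LPS level (log2 fold change 0.59, SE 0.13, limma adjusted p = 0.0079, and 0.015 with recovered values). Klf2 was at 63.9% (log2 fold change -0.59, SE 0.13, limma adjusted p = 0.0090, and 0.019 with recovered values). Runx1 was at 64.6% (log2 fold change -0.60, SE 0.07, limma adjusted p = 5.7e-04, and 0.0045 with recovered values).

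**Figure D2:**
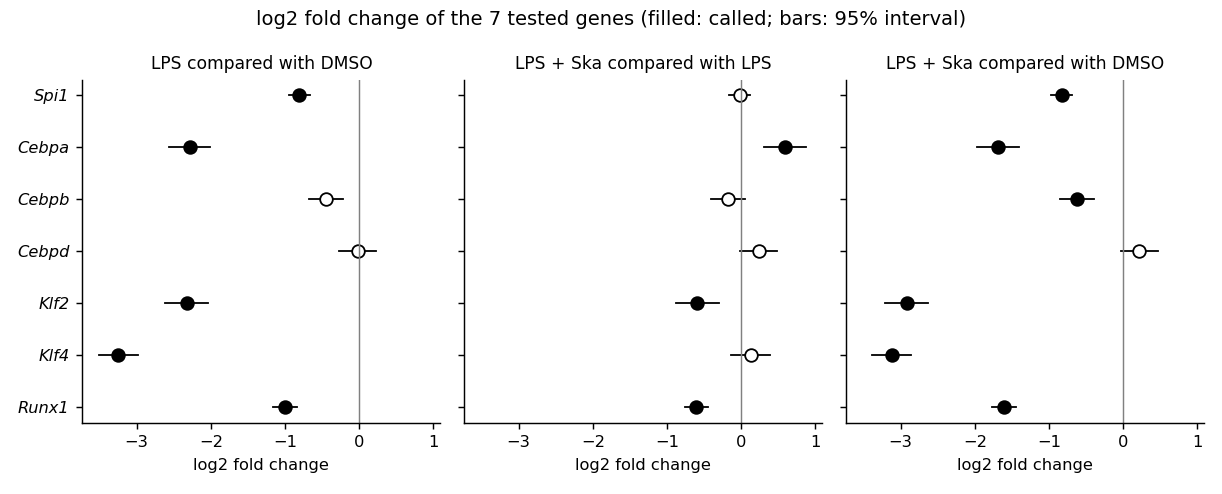
Log2 fold changes of the 7 tested lineage factors on the log2(TPM + 1) scale in the 3 comparisons, with 95% intervals from the limma fit. The intervals count the tied columns as separate values and may be too narrow. With skatole, Cebpa lay at 0.59, Klf2 at -0.59 and Runx1 at -0.60, close to the fold limits.

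These 3 genes lay just past the fold limits, which are 0.58 and -0.58 on the log2 scale. Klf2 and Runx1 were inside them with median-ratio scaling, at -0.50 and -0.51, and without LPS replicate 7, at -0.53 and -0.57. Cebpa was inside without LPS replicate 6, at 0.47, and without LPS + Ska replicate 6, at 0.55, Klf2 also without LPS + Ska replicate 6, at -0.48, and Runx1 also without LPS + Ska replicate 7, at -0.57. Over all alternatives the highest limma adjusted p was 0.033 for Cebpa, 0.038 for Klf2 and 0.0056 for Runx1, with no change of sign. Since the columns of both groups are tied, leaving out a replicate did not remove its values completely.

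The other 4 genes were not called. The log2 difference between LPS + Ska and LPS was -0.18 for Cebpb, with a 95% interval of -0.41 to 0.05, and 0.13 for Klf4, with an interval of -0.14 to 0.39. For Cebpd it was 0.24, with an interval of -0.01 to 0.48, and all LPS + Ska columns lay above all LPS columns.

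Against DMSO, LPS + Ska left 6 of the 7 genes lower and none higher, against 25.3% of all genes tested called lower and 11.4% called higher. This comparison shares the DMSO columns with the LPS comparison and the LPS + Ska columns with the skatole comparison. Cebpa reached 29.9% of its DMSO level (log2 fold change -1.69), Klf2 11.9% (-2.92), Klf4 8.18% (-3.12) and Runx1 31.8% (-1.60). Cebpb was also called here, at 65.2% (log2 fold change -0.62, SE 0.10, limma adjusted p = 5.2e-04, and 2.9e-04 with recovered values), but was inside the fold limit with median-ratio scaling, at -0.44, when rescaled without mitochondrial and ribosomal protein genes, at -0.57, and without LPS + Ska replicate 6, at -0.51. With recovered values the highest limma adjusted p of the other 5 was 1.3e-05, for Spi1. Cebpd differed by 0.22. In this comparison the median-ratio scaling moved the median of all genes by 0.16 on the log2 scale, from -0.18, and the calls over all genes went from 1457 higher and 3243 lower to 2163 higher and 2286 lower.

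Ratios between the factors are given as a description. The Cebpb to Cebpa ratio of TPM ranged from 4.98 to 6.61 in DMSO, from 17.7 to 28.7 under LPS and from 10.3 to 15.9 under LPS + Ska. The Klf2 to Klf4 ratio ranged from 2.23 to 2.65, from 6.02 to 6.65 and from 3.13 to 3.90 in the same order. The Spi1 to Runx1 ratio ranged from 6.86 to 7.67, from 8.38 to 8.44 and from 11.2 to 14.6. None of these 3 ratios overlapped between groups. Others did between LPS and LPS + Ska: Cebpa to Cebpd ranged from 0.516 to 0.807 and from 0.726 to 0.991. Spi1 to Cebpb ranged from 0.665 to 0.808 and from 0.764 to 0.882. For 7 ratios and 21 comparisons the two-sided exact permutation test over columns gave p = 0.1, the smallest that 3 columns against 3 allow (adjusted p = 0.11), except for Cebpa to Cebpd and Spi1 to Cebpb between LPS + Ska and LPS, at p = 0.2. No ratio could pass 0.05, and the ratios were chosen with the values known. Every comparison includes LPS or LPS + Ska, whose columns are tied, and the exact permutation test counts them as separate values. The values from this exact permutation test may therefore be too low, and no conclusion is drawn from them.

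**Figure D3:**
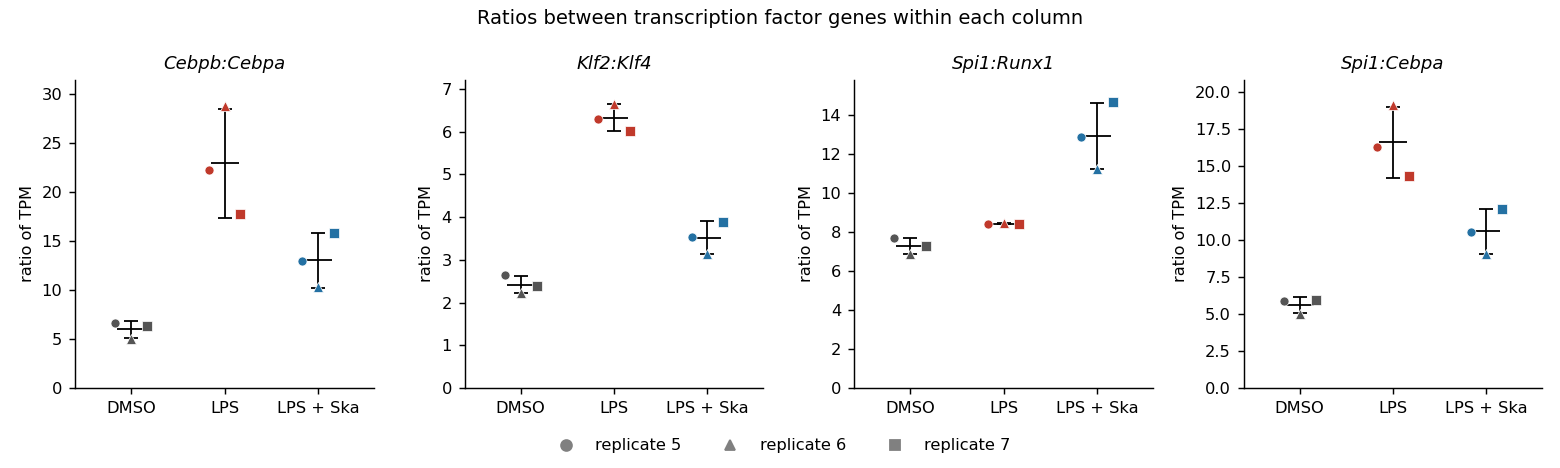
Ratios of TPM between pairs of lineage factors in every column of the DMSO, LPS and LPS + Ska groups, on linear axes from 0, with the mean and error bars of 1 SD. The Cebpb to Cebpa ratio lay at 4.98 to 6.61 in DMSO, 17.7 to 28.7 under LPS and 10.3 to 15.9 under LPS + Ska.

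Cebpa made up a mean of 12.9% of the summed TPM of Cebpa, Cebpb, Cebpd, Cebpe and Cebpg in DMSO, 3.72% under LPS and 6.16% under LPS + Ska, while the sums averaged 567, 386 and 361 TPM. Cebpb made up 76.4%, 82.3% and 78.1% of them.

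The order of levels also changed. In DMSO Cebpb and Spi1 overlapped at the top, Cebpa, Klf2 and Runx1 overlapped as neighbours in the middle, and Klf4 and Cebpd overlapped below them. Under LPS the order ran Cebpb, Spi1, Runx1, Cebpd, Cebpa, Klf2, Klf4, and only Cebpa and Klf2 overlapped. Under LPS + Ska it ran Cebpb, Spi1, Cebpd, Cebpa, Runx1, Klf2, Klf4, with an overlap of Cebpb and Spi1 only. Cebpa stood at the 81.3 percentile of genes tested in DMSO, the 41.7 under LPS and the 53.9 under LPS + Ska, and Klf4 at the 55.6, 9.75 and 12.5 percentiles.

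The genes nearest to each factor in pattern were found by the root mean square difference of centred log2(TPM + 1) over the 9 columns, among genes with a mean of at least 5 TPM. Spi1 was followed by Fermt3 (0.031), Atf6b (0.038) and Hnrnpa0 (0.041), and Runx1 by Rfng (0.084), Pip5k1c (0.089) and Btbd2 (0.098). Cebpa was followed by Fes (0.12), Gm38158 (0.13) and Rab3il1 (0.14), Cebpb by Dus3l (0.053), Pcif1 (0.054) and Entpd6 (0.056), and Cebpd by Tusc2 (0.035), Eef1akmt4 (0.058) and Tomm22 (0.075). Klf2 was followed by Ptgs1 (0.21), Zfp385a (0.22) and Spn (0.23), and Klf4 by Fgd2 (0.17), Cd24a (0.18) and Alox5 (0.22). The columns share libraries and ties, and the differences are a description.

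Related regulators from 8 lists gave 93 genes, of which 68 were tested. Under LPS 6 were called higher and 17 lower (median -0.15), with skatole added 3 higher and 5 lower (median -0.17), and against DMSO 3 higher and 20 lower (median -0.30). These are 8.82% higher and 25.0% lower under LPS, beside 12.7% and 20.0% of all genes tested, 4.41% and 7.35% with skatole, beside 3.35% and 6.14%, and 4.41% and 29.4% against DMSO, beside 11.4% and 25.3%. The shares called lower were near those of all genes. In the MAF and BACH list, Mafg (86.6, 57.6 and 69.3 TPM) and Mafk (24.3, 18.5 and 21.6 TPM) were not called.

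**Figure D4:**
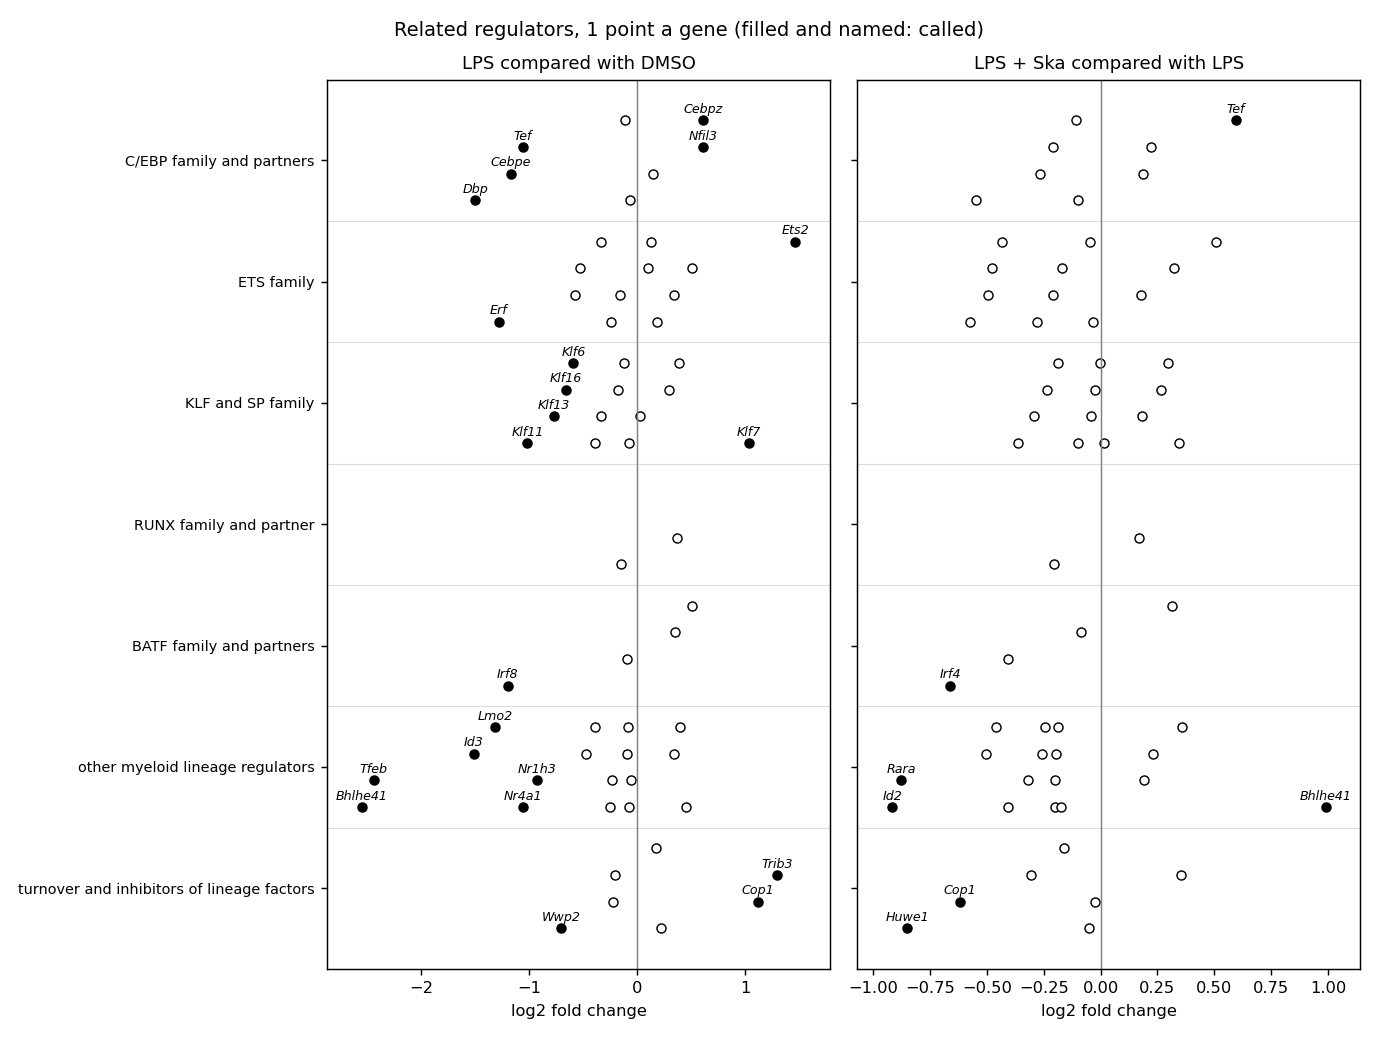
Log2 fold changes of related regulators in 7 of the lists, with 1 point a gene, in LPS against DMSO and in LPS + Ska against LPS, on log2(TPM + 1) with different x axes in the panels. Filled and named points were called, among them Ets2 at 1.47 under LPS and Id2 at -0.92 with skatole.

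In the list of C/EBP family and partners, 2 of 8 were called higher and 3 lower under LPS. That is 25.0% and 37.5%, beside 12.7% and 20.0% of all genes tested. Cebpz, listed here though it is not a basic leucine zipper factor, was among the higher (60.3, 92.7 and 80.4 TPM in the 3 groups). Tef was the 1 called with skatole, as higher (14.6, 6.49 and 10.4 TPM), which is 12.5% beside 3.35% of all genes tested. Atf4, the most abundant, was not called (493, 456 and 383 TPM). In the ETS family, to which Spi1 belongs, 1 of 12 was higher and 1 lower under LPS and none was called with skatole. Under LPS that is 8.33% each, beside 12.7% and 20.0% of all genes. Ets2 was the higher one (27.4, 76.3 and 109 TPM), and Elf1 was not called (53.0, 58.1 and 48.2 TPM). In the KLF and SP list 1 of 13 was higher and 4 lower under LPS and none was called with skatole, which is 7.69% and 30.8% under LPS beside 12.7% and 20.0% of all genes, with Klf6 lower (64.9, 42.3 and 51.9 TPM) and Sp3 not called (61.1, 79.9 and 77.9 TPM). Neither of the 2 tested RUNX partners was called, Cbfb, the partner subunit of Runx1, at 192, 248 and 279 TPM and Cbfa2t2 at 10.3, 9.14 and 7.80 TPM.

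Among the 4 tested BATF partners, Irf8 was lower under LPS (46.3, 19.7 and 18.6 TPM) and Irf4 lower with skatole (1.59, 2.28 and 1.09 TPM), while Jdp2 was not called (62.7, 89.8 and 67.7 TPM). That is 25.0% of the list in each comparison, beside 20.0% and 6.14% of all genes tested. Of 17 other myeloid regulators 6 were lower under LPS (35.3% beside 20.0% of all genes tested), including the inhibitor Id3 (207, 72.0 and 62.7 TPM). With skatole 1 was higher, Bhlhe41 (8.94, 0.701 and 2.38 TPM), and 2 were lower, Id2 (74.9, 71.1 and 37.4 TPM) and Rara (13.5, 12.6 and 6.40 TPM). These are 5.88% and 11.8%, beside 3.35% and 6.14% of all genes tested. Of the 7 tested turnover genes, Cop1, a ubiquitin ligase that acts on C/EBPα, was higher under LPS and lower with skatole (24.1, 52.6 and 34.7 TPM), Huwe1 was lower with skatole (67.0, 75.6 and 42.2 TPM), and Wwp2 was lower under LPS (52.7, 32.1 and 28.6 TPM). In that list 28.6% were higher and 14.3% lower under LPS, beside 12.7% and 20.0% of all genes tested, and 28.6% lower with skatole, beside 6.14%. With recovered values Irf4 and Cop1 lost their calls with skatole, at limma adjusted p = 0.062 and 0.082, and no other related regulator or target gene changed its call in the 3 comparisons.

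Known targets of these factors did not move as 1 group. Of 18 PU.1 and C/EBP targets 10 were lower and none higher under LPS (median -0.68), and with skatole Lyz1 and Lyz2 were higher and Fcgr1 lower (median -0.02). That is 55.6% lower under LPS beside 20.0% of all genes tested, and 11.1% higher and 5.56% lower with skatole beside 3.35% and 6.14%. Lyz2, lysozyme, averaged 9151, 4423 and 10061 TPM and Lyz1 180, 86.6 and 213 TPM, and reads of these near-identical genes may be split between them. Cd14, the LPS coreceptor, averaged 1296, 1523 and 2218 TPM. Of 8 inflammatory targets of C/EBPβ and C/EBPδ 7 were higher under LPS (87.5% beside 12.7% of all genes), and 3 were lower with skatole (37.5% beside 6.14%), Il6 (listed at 0, then 4.35 and 0.259 TPM), Il1b (0.155, 28.1 and 10.2 TPM) and Lcn2. Ccl2 (5.59, 234 and 175 TPM) and Ptgs2 (12.5, 158 and 203 TPM) were the most abundant of that list. Of 10 MAF and KLF targets 2 were tested: S1pr1, a KLF2 target, was lower under LPS (8.87, 0.0593 and 0.429 TPM) and was not called with skatole (limma adjusted p = 0.064), and Il10 was not called (0.691, 0.980 and 1.35 TPM).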

How the data were processed

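The authors deposited TPM values for 55401 genes, 55141 of them paired with a symbol, in 9 columns, and the sequencing depth is unknown because TPM keeps none. The submitters' processing notes name fastp 0.20.1, HISAT2 2.2.1, StringTie 2.0 and mm10. The annotation and the step that tied columns are not given in the sources used here. The library kit is not stated to mark strand.

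Values were taken as log2(TPM + 1), genes with a mean of at least 1 TPM were kept, and all 9 columns were fitted together with limma 3.58.1 (lmFit, eBayes with trend) in R 4.3.3, without a replicate block. A call needed a Benjamini-Hochberg adjusted p under 0.05 together with a fold over 1.5 or under 0.67, limits taken from the study. The fit was tested on simulated data. The recovered values are replicate 5 plus and minus 0.5 times the difference of replicates 6 and 5. Replicate 7 was used where replicate 6 had no signal. They lie closer together than replicates 6 and 7 (Spi1 under LPS, 228 and 237 against 224 and 242 TPM). This rests on an assumption about how the columns were tied, which was not tested, and adjusted p from recovered values carry that limit. Overlaps came from GENCODE M21 and promoters from RefSeq. Plots used matplotlib 3.10.9 (Python 3.11.15).

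Every lineage factor was named. From each related list, the 2 genes with the highest mean TPM and the 2 called genes with the largest change with skatole were named, and others named (Mertk, Csf1r, Tyrobp, Laptm5, Lck, Rara, Fcgr1, Lcn2 and overlapping genes) were chosen after their values were seen. The 3 nearest genes in pattern were named for each factor. The genes and lists were chosen with earlier results of these data known. Replicate numbers were not taken to pair samples. The alternatives were other scalings, pseudocounts and filters, adjusted p alone, recovered values, a replicate block and leaving out each replicate. Fits of the compared groups alone and without the intensity trend were also among them. A result on a related regulator is not reported here, and its list is left out of the plot of related regulators.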

Additional observations from a re-analysis of the deposited data

How the results depend on the processing

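Of 378 alternative values of the 21 fold changes, 359 kept their direction and their side of the call limits, 11 lost the call and 8 changed sign, and the sign changes were in differences that were never called. Many of these values could not change direction. Other filters, no intensity trend, the compared groups alone and the replicate block leave the fold change itself unaltered. So does leaving out a replicate of the group not compared. The number of lineage factors called with skatole fell from 3 to 1 with median-ratio scaling and ranged from 1 to 3 when a replicate was left out. It was 1 when LPS replicate 7 was left out, and also when LPS + Ska replicate 6 was. In LPS and LPS + Ska replicate 5 is the mean of replicates 6 and 7. Leaving out a column there removes no value completely, so these ranges may understate how much the calls depend on single columns. With the adjusted p alone the related regulators called went from 23 to 44 under LPS, from 8 to 24 with skatole and from 23 to 40 against DMSO, since the fold limit was dropped. The log2 difference of Cebpd between LPS and DMSO became 0.061 with median-ratio scaling and 0.018 when rescaled without mitochondrial and ribosomal protein genes, and ranged from -0.13 to 0.072 with a replicate left out. It was 0.072 without DMSO replicate 5, 0.00054 without DMSO replicate 6 and 0.0091 without LPS replicate 7. That of Spi1 between LPS + Ska and LPS became 0.080 with median-ratio scaling and ranged from -0.078 to 0.040 with a replicate left out, being 0.0087 when LPS replicate 7 was omitted and 0.040 when LPS + Ska replicate 6 was. Except where the construction shows it, the cause was not tested.

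With the replicate block 5, 3 and 6 lineage factors were called in the 3 comparisons, and 23, 7 and 23 related regulators, so no call of a lineage factor changed. Deviations of same-numbered columns correlated at -0.0063 to 0.055 between LPS and DMSO and at -0.032 to 0.080 between LPS + Ska and DMSO. Between LPS + Ska and LPS they correlated at 0.13 to 0.38, but those columns are tied, so this does not show pairing. TPM keeps no depth, so no counting interval can be given for low genes such as Klf4, Maf and Batf.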
